A study of Mus musculus with 2 samples.

Results

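The 44 genes described here encode the antioxidant enzymes that use glutathione or thioredoxin, the superoxide dismutases and catalase, and the transcription factor NRF2 (gene Nfe2l2) with its inhibitor KEAP1 and several of its targets. They were chosen by symbol, and all 44 were found among the 24369 gene rows of the table. They were measured by RNA sequencing in type II pneumocytes, the surfactant-producing alveolar type 2 cells, which had been sorted from C57BL6 wild-type mouse lung at postnatal day 28 (P28) and at postnatal day 7 (P7). Each age had 1 library and 1 RPKM value per gene (reads per kilobase of gene, relative to the reads of the library). How the cells were marked for sorting, or how many animals were pooled, is not given in the sources used here. A single library per age allows no test and no replicate check, so every difference below compares these 2 libraries. The question here is how transcripts of antioxidant defence in these cells differ between day 28 and day 7 after birth.

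Superoxide dismutases turn superoxide into hydrogen peroxide, and catalase, glutathione peroxidases and peroxiredoxins remove the peroxide. The peroxidases are kept reduced by glutathione or thioredoxin, which are recharged by their reductases at the expense of NADPH. Glutathione transferases join glutathione to reactive compounds, and NRF2, which KEAP1 marks for degradation, switches on many of these genes through the antioxidant response element. Lung epithelium meets oxygen at the air surface, and type 2 cells must protect both themselves and the lipids of surfactant.

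Facts about the libraries bear on all values. The type 2 cell genes led by Sftpc summed to 29290 RPKM at P28 and 16671 at P7, and the lowest of these 9 markers had 65.1 and 61.7 RPKM (Abca3). The sum of all RPKM was 143071 at P28 and 108758 at P7, a ratio of 1.32. A gene with a ratio of 1.32 therefore held the same share of the total in both libraries. Within these sums, Sftpc alone had 24085 RPKM at P28 and 13343 at P7. Club cell markers (5 of 5 measured) summed to 18966 RPKM at P28 and 7222 at P7, of which Scgb1a1 made up 18104 and 6764. Red blood cell markers (9 in the table) summed to 1.75 RPKM at P28 and 48.0 at P7, endothelial markers (8) to 13.4 at P28 and 39.7 at P7, and fibroblast markers (11) to 13.9 at P28 and 31.3 at P7. Type 1 cell markers (8) summed to 191 RPKM at P28 and 326 at P7, with 7 intervals wholly below 1, and proliferation markers (5) to 9.92 at P28 and 34 at P7, with 5 below. Ciliated cell markers (7) summed to 207 RPKM at P28 and 213 at P7, and smooth muscle markers (4) to 0.983 and 3.28. Of 14 macrophage markers, Adgre1, C1qa, C1qb, C1qc, Marco and Siglecf were listed at 0 in both libraries, and the sum was 3.16 RPKM at P28 and 3.82 at P7. Xist, the RNA of the inactive X chromosome, had 0.245 RPKM at P28 and 52.7 at P7, while the Y-linked gene Ddx3y had 4.01 RPKM at P28 and was listed at 0 at P7. A male P28 and a female P7 library would look like this, so differences of age and of sex cannot be told apart. In RNA of sorted cells, fewer cells of a type and less RNA per cell cannot be told apart either.

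Most antioxidant genes had somewhat more RPKM at P28 than at P7, and 2 secreted enzymes, 1 peroxiredoxin and 1 glutathione transferase were past 2-fold. Of the 43 genes detected, 33 had a higher value at P28 and 10 a lower one, but with both libraries rescaled to the same total RPKM the split was 21 and 22. The 44 genes summed to 1404 RPKM at P28 and 1033 at P7, a ratio of 1.36, or 0.981% and 0.949% of the total. By plain ratio 11 genes exceeded 2 and 0 were under 0.5, and the 7 beyond those past 2-fold on the scale used below were Gpx2, Srxn1, Gsta3, Gstm2, Mgst2, Hmox1 and Nqo1. Plain ratios were not counted over all genes, so these counts have no background here. Of the 44 genes, 40 reached 1 RPKM in at least 1 library, and the other 4 were Slc7a11, Nqo1, Gstm5 and Ggt1. On the scale of the log2 ratio of (RPKM + 1), P28 over P7, 4 of these 40 (10%) were higher at P28 by 2-fold or more, namely Gpx3, Sod3, Prdx6 and Gstm1, and 0 were lower by that much. Among all 9653 genes of 1 RPKM or more, 1.18% were higher by 2-fold or more and 1.96% lower. By sign alone, 31 of the 40 genes had a log2 ratio above 0 and 9 below, against 3789 and 5864 of all 9653. The median log2 ratio of the 40 genes was 0.36, against -0.08 for all 9653. With equal totals, the median of all genes moved by -0.29, to -0.37, and that of the antioxidant genes became 0.02, with Gpx3 and Sod3 still past 2-fold. The split of the 40 genes by sign was then 20 and 20. It stayed 31 and 9 under upper quartile scaling and with totals taken without the 10 most abundant genes of each library. In the latter setting the median was 0.33, against -0.10 for all genes. Setting the median log2 ratio of all genes to 0 gave 33 and 7.

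Read numbers recovered from the RPKM steps gave each ratio a 95% exact (Clopper-Pearson) interval, which covers counting error only and says nothing of the spread between animals. For 27 of the 40 genes the interval lay wholly above 1, for 3 wholly below 1, and for 10 it held 1. Among the 9587 genes with a transcript length, 18.0% had an interval wholly above 1 and 33.1% wholly below. Intervals narrow with the number of reads, so abundant genes leave 1 more easily. With equal totals the counts were 14 above 1 and 16 below, where all genes gave 5.17% above and 67.8% below. Directions given below as plain ratios therefore turn below 1 with equal totals wherever the ratio is under 1.32.

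**Figure D1:**
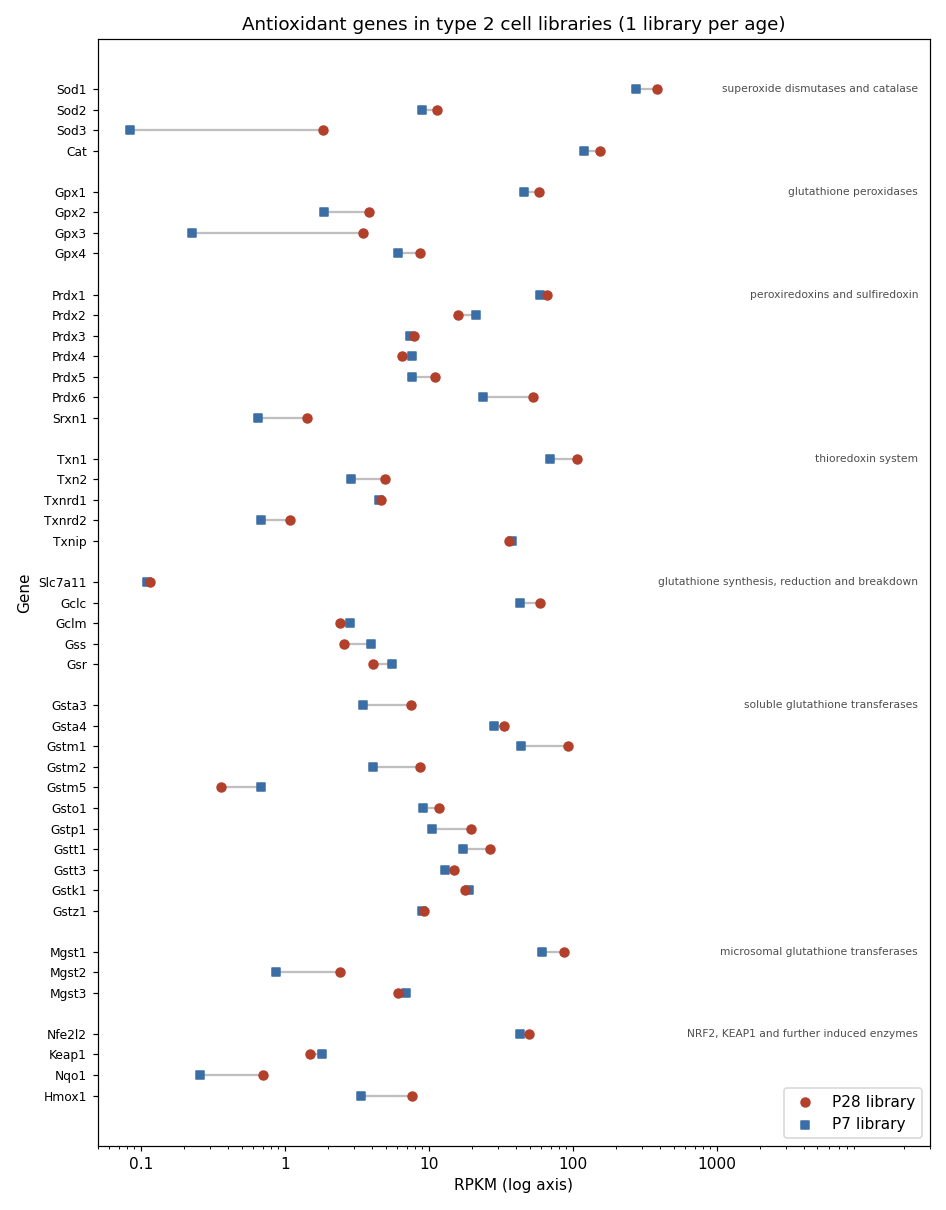
RPKM of 43 antioxidant genes on a log axis, ordered by role, with a circle for the P28 library and a square for the P7 library. Sod1 and Cat lie farthest right, Sod3 and Gpx3 show the widest gaps between ages, and Ggt1, listed at 0 in both libraries, cannot be drawn.

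**Figure D2:**
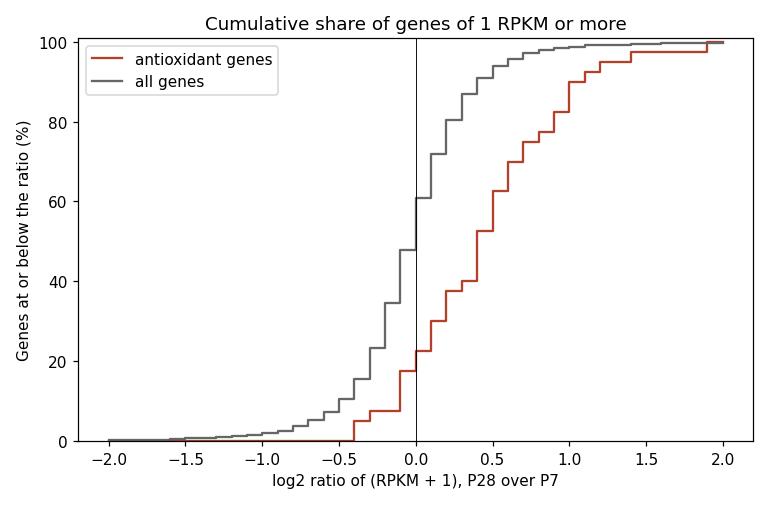
Cumulative percentage of genes at or below each log2 ratio of (RPKM + 1), P28 over P7, for the antioxidant genes and for all genes of 1 RPKM or more. At a log2 ratio of 0 the curve stands at 22.5% of the antioxidant genes and 60.7% of all genes.

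The NRF2 pathway meets its targets through a short DNA element, and promoter windows are shown here because several of the 44 genes are known targets of NRF2. RefSeq windows from 250 bases before to 50 bases after a start site (build GRCm38.p6) were supplied for 38 of the 44 genes. Gclc, Prdx6, Gsr, Gsta4, Sod3 and Hmox1 had no window. The core TGACNNNGC, searched on both strands, was found in 12 of 50 windows and in 10 of 38 antioxidant genes (26.3%), against 12.4% of all 32851 windows and 14.0% of all 27025 genes. The 10 genes were Gsta3, Nfe2l2, Srxn1, Gstm5, Gclm, Prdx1, Mgst1, Ggt1, Txnrd1 and Sod1, of which Gstm5 and Ggt1 did not reach 1 RPKM. The background took every gene with a window, expressed or not, and was not matched for CG content, so the shares compare unlike sets. Of the genes past 2-fold, Gstm1 and Gpx3 had windows, and 0 of these 2 held the core. Genes of 1 RPKM or more with the core had a median log2 ratio of 0.33 (8 genes) and those with a window but no core 0.34 (26 genes). A match is a description of these letters, not a proven site. Sequence outside the 300 bases of each window was not searched. A gene without the core here may therefore hold it elsewhere, and the 2 medians do not compare genes with and without NRF2 sites.

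Printed here are windows of 3 genes with the core and of the 2 genes past 2-fold that have a window, 5′ to 3′ along the strand of the gene, with the core in capitals. Prdx1 (chr4:116685349-116685648, plus strand) holds TGACTCAGC on the reverse strand, starting 133 bases before the start site, and this copy overlaps the AP-1 motif TGACTCA. Gsta3 (chr1:21240335-21240634, plus strand) holds TGACATTGC on the gene's strand, and Gclm (chr3:122245307-122245606, plus strand) holds TGACGGTGC on the reverse strand. Gstm1 (chr3:108017924-108018223, minus strand, 1 of its 2 windows) and Gpx3 (chr11:54902604-54902903, plus strand) hold no core and so have no capitals. The AP-1 motif TGACTCA, also searched on both strands, was found in 5 of 38 antioxidant genes and in 5.95% of all genes.
Prdx1: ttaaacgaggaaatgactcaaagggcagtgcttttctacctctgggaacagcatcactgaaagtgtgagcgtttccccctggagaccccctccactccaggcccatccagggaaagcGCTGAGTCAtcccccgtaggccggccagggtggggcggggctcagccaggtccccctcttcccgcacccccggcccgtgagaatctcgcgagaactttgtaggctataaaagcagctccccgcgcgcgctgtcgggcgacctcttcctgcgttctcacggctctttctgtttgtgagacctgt
Gsta3: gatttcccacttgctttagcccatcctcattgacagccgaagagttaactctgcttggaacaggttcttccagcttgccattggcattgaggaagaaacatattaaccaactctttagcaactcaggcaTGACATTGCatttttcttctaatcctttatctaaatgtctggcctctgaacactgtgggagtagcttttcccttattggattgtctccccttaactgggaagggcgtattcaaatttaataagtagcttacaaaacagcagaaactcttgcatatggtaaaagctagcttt
Gclm: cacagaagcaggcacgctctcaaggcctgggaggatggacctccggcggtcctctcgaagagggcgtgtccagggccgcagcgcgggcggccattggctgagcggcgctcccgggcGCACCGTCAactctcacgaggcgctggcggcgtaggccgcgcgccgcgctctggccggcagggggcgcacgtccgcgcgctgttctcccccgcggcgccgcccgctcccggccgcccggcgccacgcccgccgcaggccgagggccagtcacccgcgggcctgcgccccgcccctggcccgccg
Gstm1: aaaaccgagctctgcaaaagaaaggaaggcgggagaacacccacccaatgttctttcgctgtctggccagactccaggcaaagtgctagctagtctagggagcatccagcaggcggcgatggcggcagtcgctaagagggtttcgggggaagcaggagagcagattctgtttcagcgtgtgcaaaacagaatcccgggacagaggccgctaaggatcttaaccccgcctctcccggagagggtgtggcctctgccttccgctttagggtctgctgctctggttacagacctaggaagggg
Gpx3: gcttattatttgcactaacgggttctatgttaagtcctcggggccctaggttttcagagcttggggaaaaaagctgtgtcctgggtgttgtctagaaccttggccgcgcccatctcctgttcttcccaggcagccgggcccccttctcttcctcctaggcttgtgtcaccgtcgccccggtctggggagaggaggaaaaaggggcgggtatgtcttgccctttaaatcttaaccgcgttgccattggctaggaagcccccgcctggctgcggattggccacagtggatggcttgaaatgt
The windows also differ in CG content. The observed over expected frequency of CG pairs had a median of 0.659 over the antioxidant genes and 0.415 over all genes, taking the highest window of each gene.

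Superoxide dismutases and catalase were the most abundant group, with 550 RPKM in sum at P28 and 405 at P7, a ratio of 1.36. Sod1, the cytosolic copper and zinc enzyme, had 383 RPKM at P28 and 276 at P7, rank 18 and rank 21 of all rows. Its ratio was 1.39 (interval 1.33 to 1.45), and with equal totals 1.05 (1.01 to 1.10). Cat, the peroxisomal catalase, had 154 RPKM at P28 and 120 at P7, a ratio of 1.29 (1.24 to 1.33) that became 0.978 with equal totals. Sod2, the manganese enzyme of mitochondria, had 11.4 RPKM at P28 and 8.92 at P7, a ratio of 1.27 (1.17 to 1.38), which became 0.968 with equal totals. Per length, the Sod1 level was 33.7 times that of Sod2 at P28 and 31.0 times at P7.

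The 2 secreted enzymes of the set were the genes farthest apart between the libraries. Sod3, the extracellular superoxide dismutase that binds to matrix and cell surfaces, had 1.83 RPKM at P28 and 0.0833 at P7. Its ratio was 22.0 (10.1 to 75.1), resting on about 168 reads at P28 and 5 at P7. Gpx3, the glutathione peroxidase secreted into plasma and lining fluids, had 3.46 RPKM at P28 and 0.225 at P7. Its ratio was 15.4 (7.27 to 45.0), on about 136 and 6 reads. On the log2 scale with the pseudocount the differences were 1.39 for Sod3 and 1.86 for Gpx3, and with equal totals 1.24 and 1.67, so both stayed past 2-fold. Both were below 1 RPKM at P7 and low at P28, with ranks of 6712 and 4391. Read numbers that do not depend on transcript length allow as few as 92 and 3 reads for Sod3, with an interval of 7.28 to 108, and 43 and 2 reads for Gpx3, with an interval of 4.01 to 131. Fibroblast markers moved both ways beside them, and of the 8 that reached 1 RPKM, 6 had intervals wholly below 1 and 2, Inmt and Dcn, wholly above. Fbln5 had 2.08 RPKM at P28 and 10.6 at P7, Postn 0.346 and 4.03, and Lox 0.758 and 3.84. Inmt had 2.31 RPKM at P28 and was listed at 0 at P7, and Dcn had 1.35 and 0.490. Markers under 1 RPKM also went both ways. Pdgfra had 0.730 RPKM at P28 and 0.152 at P7, Lum 0.118 and 0, and Pdgfrb 0.0451 and 0.650. The club cell markers differed widely from each other. Scgb3a1 had 203 RPKM at P28 and 12.2 at P7, Muc5b 13.2 and 3.28, and Scgb1a1 18104 and 6764. Cyp2f2 had 343 and 166 RPKM, and Scgb3a2 302 and 277. The part of fibroblasts and club cells in the differences of Sod3 and Gpx3 was not tested.

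Among the other glutathione peroxidases, all of them selenoproteins, ratios lay between 1.28 and 2.07. Gpx1, the abundant cytosolic and mitochondrial form, had 58.5 RPKM at P28 and 45.7 at P7, a ratio of 1.28 (1.18 to 1.39) that became 0.974 with equal totals. Gpx4, which reduces lipid peroxides within membranes, had 8.69 and 6.07 RPKM, a ratio of 1.43 (1.12 to 1.84). Gpx2, the form of gut and other epithelia, had 3.85 RPKM at P28 and 1.86 at P7, a ratio of 2.07 (1.38 to 3.15) but a log2 ratio of 0.76 with the pseudocount. The copies Gpx4-ps2 and Gpx2-ps1 match 80.9% of the Gpx4 transcript and 53.6% of the Gpx2 transcript at 97% identity or more, so their levels are uncertain. The 6 selenoproteins of the set, Gpx1 to Gpx4 with Txnrd1 and Txnrd2, all had ratios above 1 as deposited, and Gpx1 and Txnrd1 turned below 1 with equal totals.

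Peroxiredoxins split between Prdx6, past 2-fold, and the rest. Prdx6, which reduces peroxidised phospholipids with glutathione and also carries the phospholipase activity that acts on surfactant lipid, had 52.8 RPKM at P28 and 23.8 at P7. The ratio was 2.22 (2.03 to 2.43), on about 2008 and 648 reads, and with equal totals 1.69 (1.54 to 1.85). Prdx1, the cytosolic form that led the family in both libraries, had 66.0 RPKM at P28 and 59.2 at P7, a ratio of 1.11 (1.06 to 1.17) that became 0.847 with equal totals. The Prdx1 level was thus 1.25 times that of Prdx6 at P28 and 2.49 times at P7. Prdx2, the cytosolic form abundant in red blood cells, had 15.9 RPKM at P28 and 21.3 at P7, a ratio of 0.744 (0.663 to 0.835). Of the red blood cell genes, Hbb-bs had 0.185 RPKM at P28 and 9.03 at P7, and their part in the Prdx2 value was not tested. Prdx5, found in mitochondria, peroxisomes and cytosol, had 10.9 and 7.68 RPKM, a ratio of 1.42 (1.18 to 1.72). Prdx3 of mitochondria, with 7.88 and 7.35 RPKM, and Prdx4 of the endoplasmic reticulum, with 6.55 and 7.57 RPKM, had intervals that held 1. Srxn1, sulfiredoxin, which repairs overoxidised peroxiredoxins, had 1.42 RPKM at P28 and 0.646 at P7, a ratio of 2.19 (1.46 to 3.38) and a log2 ratio of 0.55 with the pseudocount.

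**Figure D3:**
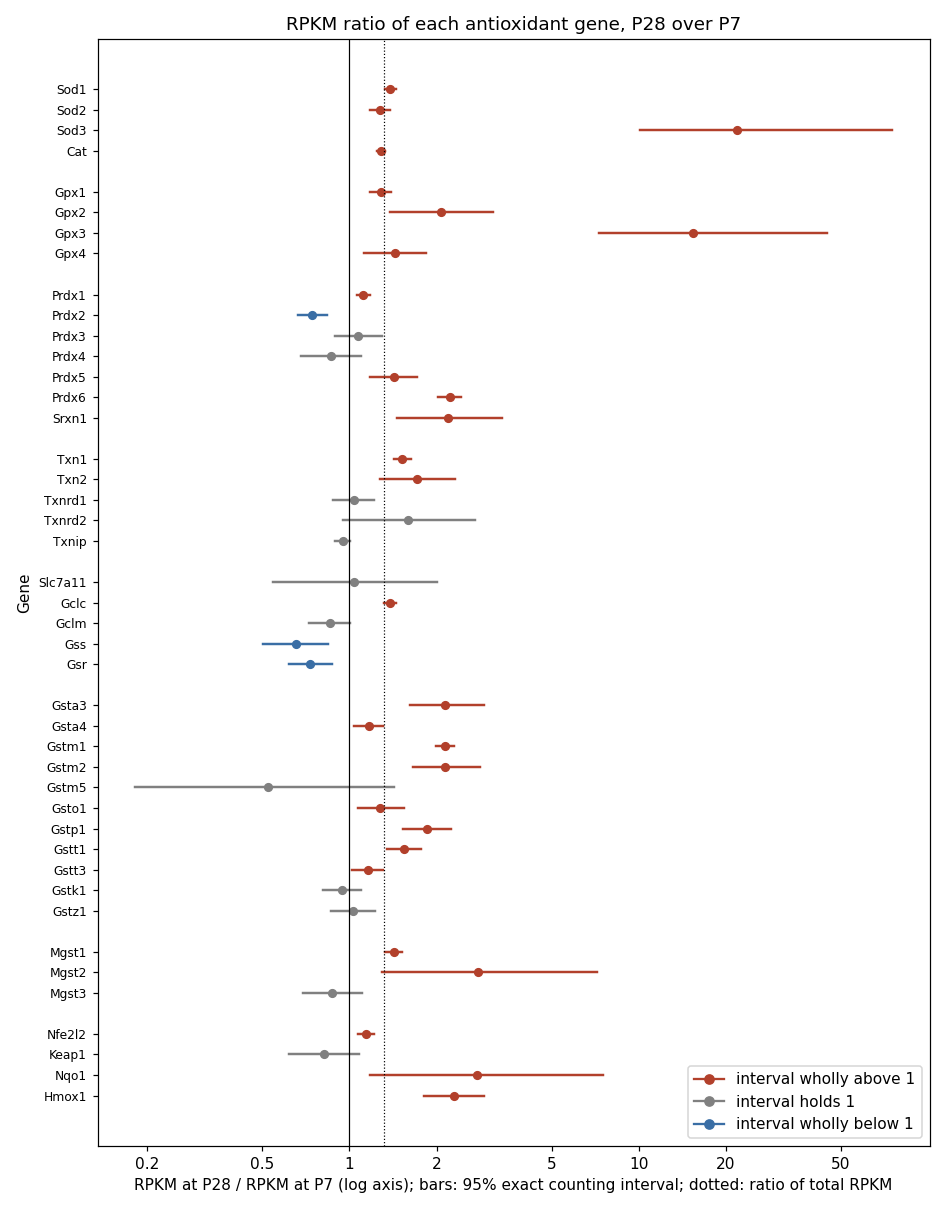
Plain RPKM ratio of each gene, P28 over P7, on a log axis, with its 95% exact counting interval as a bar. A solid line marks 1 and a dotted line marks 1.32, the ratio of total RPKM, and Sod3 and Gpx3 stand apart with ratios of 22.0 and 15.4.

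In the thioredoxin system the intervals of the electron carriers Txn1 and Txn2 lay wholly above 1, while those of both reductases and of the inhibitor held 1. Txn1, cytosolic thioredoxin, had 106 RPKM at P28 and 69.9 at P7, a ratio of 1.52 (1.43 to 1.63), and with equal totals 1.16 (1.08 to 1.24). Txnrd1, the reductase that recharges it, had 4.63 and 4.48 RPKM, a ratio of 1.03 (0.878 to 1.22). The Txn1 level was 23.0 times that of Txnrd1 at P28 and 15.6 times at P7. Txnip, which binds and inhibits thioredoxin, had 35.9 RPKM at P28 and 37.9 at P7, a ratio of 0.947 (0.892 to 1.01). The mitochondrial pair had lower levels. Txn2 had 4.95 RPKM at P28 and 2.88 at P7, a ratio of 1.72 (1.28 to 2.32) on about 158 and 66 reads. With equal totals its ratio was 1.31 and the interval held 1 (0.972 to 1.76). Its reductase Txnrd2 had 1.09 and 0.686 RPKM, a ratio of 1.59 (0.953 to 2.72) on about 51 and 23 reads. The intervals of this pair overlapped, so the pair gives no contrast of carrier and reductase. None of the 5 genes was past 2-fold. Across the mitochondrial proteins Sod2, Prdx3, Txn2, Txnrd2 and Gstk1 the sum was 43.1 RPKM at P28 and 38.8 at P7, a ratio of 1.11. Its largest part was Gstk1, also found in peroxisomes, with 17.8 and 18.9 RPKM. Gpx1 and Prdx5, which lie partly in mitochondria, were left out and had ratios of 1.28 and 1.42.

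Genes of glutathione synthesis and reduction did not move as a block. Gclc, the catalytic subunit of the rate-limiting ligase, had 59.0 RPKM at P28 and 42.8 at P7, a ratio of 1.38 (1.31 to 1.45), and 1.05 with equal totals (0.999 to 1.10). Gclm, the modifier subunit that raises the activity of the ligase, had 2.41 and 2.82 RPKM, a ratio of 0.855 (0.727 to 1.01). Per length, the catalytic subunit therefore had 24.4 times the level of the modifier at P28 and 15.2 times at P7. Gss, glutathione synthetase, had 2.59 RPKM at P28 and 3.96 at P7, a ratio of 0.653 (0.501 to 0.841). Gsr, glutathione reductase, had 4.08 and 5.57 RPKM, a ratio of 0.733 (0.616 to 0.872). With Prdx2 these 2 were the only genes of the set whose intervals lay wholly below 1 as deposited. The genes that act at the cell surface had low or 0 values. Slc7a11, the cystine importer that NRF2 induces, had 0.115 RPKM at P28 and 0.111 at P7, on about 26 and 18 reads. Ggt1, the ectoenzyme that splits extracellular glutathione, was listed at 0 in both libraries, where 3 reads would have given 0.0566 RPKM at P28 and 0.0791 at P7. Some of the 83 ribosomal protein genes (3) were also listed at 0 in a library, so a 0 may be a failed estimate.

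Soluble glutathione transferases summed to 242 RPKM at P28 and 158 at P7, a ratio of 1.54. Of the 10 genes of 1 RPKM or more, 1 was past 2-fold, 8 had an interval wholly above 1 and 0 had one below, and with equal totals 5 lay above and 4 below. Of all genes 18.0% lay above and 33.1% below, and with equal totals 5.17% and 67.8%. Gstm1, Gstm2, Gsta3 and Gstp1 had the highest ratios. Gstm1 of the mu class, the most abundant, had 92.8 RPKM at P28 and 43.5 at P7, a ratio of 2.13 (1.99 to 2.30) on about 2942 and 987 reads, and 1.62 with equal totals (1.51 to 1.75). Its neighbour Gstm2 had 8.74 and 4.07 RPKM, a ratio of 2.15 (1.66 to 2.84). The Gstm1 level was 10.6 times that of Gstm2 at P28 and 10.7 times at P7. Gsta3 of the alpha class had 7.50 RPKM at P28 and 3.49 at P7, a ratio of 2.15 (1.62 to 2.92). Gstp1 of the pi class had 19.5 and 10.5 RPKM, a ratio of 1.85 (1.53 to 2.25). On the pseudocount scale Gstm2, Gsta3 and Gstp1 stayed within 2-fold, with log2 ratios of 0.94, 0.92 and 0.83.

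The remaining transferases differed less. Gsta4, which clears lipid aldehydes, had 33.1 RPKM at P28 and 28.4 at P7, a ratio of 1.17 (1.04 to 1.31). Of the theta class, Gstt1 had 26.4 and 17.1 RPKM, a ratio of 1.54 (1.35 to 1.77), and Gstt3 had 14.9 and 12.9, a ratio of 1.16 (1.02 to 1.31). Gsto1 of the omega class had 11.7 and 9.15 RPKM, a ratio of 1.28 (1.07 to 1.54). Gsta4, Gstt3 and Gsto1 turned below 1 with equal totals. Gstk1 of mitochondria and peroxisomes, with 17.8 and 18.9 RPKM, and Gstz1, which acts in tyrosine breakdown, with 9.18 and 8.92 RPKM, had intervals that held 1. Gstm5 had 0.357 RPKM at P28 and 0.686 at P7, about 8 and 11 reads.

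Gene position and sequence likeness limit these transferase values. In GRCm38, Gstm5, Gstm2 and Gstm1 lie together on chromosome 3 between 107895821 and 108017973, and Gstt3 and Gstt1 on chromosome 10 between 75774115 and 75798584. Stretches of 100 bases or more at 97% identity or more to another annotated gene cover 86.1% of the Gstp1 transcript (nearest partner Gstp2) and 51.0% of the Gstm1 transcript (a processed pseudogene). Gstp2 itself had 1.33 RPKM at P28 and 0.307 at P7. Of all 44 genes, 16 had such a stretch, 5 of them over 50% of the transcript, the fifth beside those already named being Sod1 (72.5%, a processed pseudogene). How the counting assigned such reads is not given in the sources used here, so these levels are uncertain. The oxidase gene Nox1 had 9.01e-40 RPKM at P28, far under 1 read, so at least some values are not whole reads. The intervals leave out any error in assigning reads between near-identical genes. Transcripts of Txnip (21.8%), Prdx5 (32.4%), Gstt3 (27.9%), Gstz1 (21.6%) and Keap1 (16.2%) overlap an antisense or neighbouring gene, and without strand such reads cannot be told apart. Cyp2f2 of the club cell list had 343 RPKM at P28 and 166 at P7, while Scgb3a2 had 302 and 277. The other club cell markers are given above, and the part of club cells in the transferase ratios was not tested.

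Microsomal transferases, membrane enzymes that also reduce lipid peroxides, were led by Mgst1. It had 86.6 RPKM at P28 and 60.9 at P7, a ratio of 1.42 (1.33 to 1.52), and 1.08 with equal totals (1.01 to 1.16). Mgst3 had 6.08 and 6.97 RPKM, a ratio of 0.872 (0.689 to 1.10). Mgst2 had 2.42 RPKM at P28 and 0.868 at P7, a ratio of 2.78 (1.29 to 7.19) on about 32 and 8 reads, and a log2 ratio of 0.87 with the pseudocount.

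**Figure D4:**
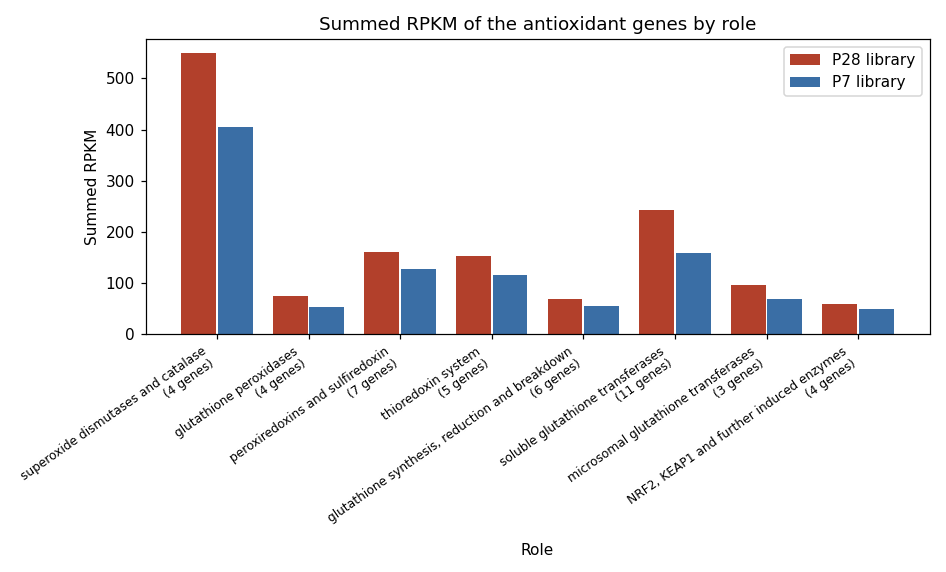
Summed RPKM of the antioxidant genes in each role, with the P28 bar left of the P7 bar and 1 library per age. Superoxide dismutases with catalase reach 550 RPKM at P28 and 405 at P7, and soluble glutathione transferases 242 and 158.

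NRF2 itself was well expressed at both ages, KEAP1 much less per length, and the NRF2 target Nqo1 stayed under 1 RPKM. Nfe2l2 had 49.3 RPKM at P28 and 43.2 at P7, a ratio of 1.14 (1.07 to 1.22) that became 0.868 with equal totals. Keap1 had 1.48 and 1.82 RPKM, a ratio of 0.816 (0.619 to 1.08), so the Nfe2l2 level was 33.2 times that of Keap1 at P28 and 23.8 times at P7. Hmox1, haem oxygenase, had 7.69 RPKM at P28 and 3.35 at P7, a ratio of 2.29 (1.81 to 2.92), and its log2 ratio of 0.998 with the pseudocount fell just short of 2-fold. Nqo1, the quinone reductase, had 0.707 RPKM at P28 and 0.256 at P7, about 27 and 7 reads, a ratio of 2.76 (1.17 to 7.51). Macrophages also make Hmox1, and their part in the Hmox1 value was not tested. Of their markers, Cd68 had 1.08 RPKM at P28 and 0.455 at P7, on about 33 and 10 reads, and Csf1r had 1.49 and 2.23 RPKM. Under 1 RPKM, Ptprc had 0.00718 RPKM at P28 and 0.0902 at P7, Tyrobp 0 and 0.401, Fcer1g 0.309 and 0.518, and Mrc1 0.107 and 0.128. Ear1 and Ear2 were higher at P28, on about 2 and 1 reads there. The 6 macrophage markers listed at 0 are named above.

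Beyond the 44 genes, 13 lists of related genes held 146 genes in the table, of which 105 reached 1 RPKM. Of these 105, 3 (2.86%) were past 2-fold higher and 1 past 2-fold lower at P28, against 1.18% and 1.96% of all genes. The median log2 ratio was 0.13, against -0.08 for all genes. The 3 were Anpep, Xdh and Cth, the last named after its value was seen. Anpep, an ectopeptidase that can degrade the dipeptide from glutathione, had 56.7 RPKM at P28 and 26.5 at P7, a ratio of 2.14 (2.02 to 2.27). Cth, which makes cysteine, had 3.03 RPKM at P28 and 0.883 at P7, a ratio of 3.43 (2.29 to 5.39). Xdh, xanthine oxidoreductase, a source of superoxide and urate, had 7.34 RPKM at P28 and 2.20 at P7, a ratio of 3.33 (2.84 to 3.95). The lower gene was Mt2, a metallothionein that binds zinc and scavenges oxidants, with 6.0 RPKM at P28 and 19.3 at P7, a ratio of 0.311 (0.232 to 0.407). Mt1 had 13.7 and 19.1 RPKM, a ratio of 0.720 (0.584 to 0.888).

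Other NRF2 targets (15 of 19 at 1 RPKM or more) had a median log2 ratio of 0.28, and -0.05 with equal totals. In that list Fth1, the ferritin heavy chain, had 196 RPKM at P28 and 105 at P7, a ratio of 1.87 (1.78 to 1.96), and Ephx1, microsomal epoxide hydrolase, had 6.74 and 3.75, a ratio of 1.80 (1.44 to 2.24). Blvrb had 5.05 and 3.53 RPKM and Slc48a1 6.66 and 5.15 RPKM, and 0 of the 15 genes were past 2-fold. In the list of selenoproteins and their synthesis (14 genes in the table, 12 at 1 RPKM or more) the median was 0.18 and 0 were past 2-fold. Sepp1, the secreted selenium carrier, had 154 RPKM at P28 and 93.3 at P7, a ratio of 1.65 (1.59 to 1.72), and Sepw1 had 14.5 and 7.89 RPKM, a ratio of 1.83 (1.46 to 2.34). Vimp had 35.1 and 21.0 RPKM and Secisbp2l 25.5 and 19.3 RPKM.

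Genes that supply NADPH, the source of reducing power, had 0 of 11 past 2-fold and a median of 0.15. G6pdx, the entry enzyme of the pentose phosphate pathway, had 7.45 RPKM at P28 and 5.53 at P7, a ratio of 1.35 (1.15 to 1.57), and Pgd had 12.2 and 9.37, a ratio of 1.30 (1.15 to 1.48). Tkt had 6.94 and 5.86 RPKM and Idh2 19.6 and 17.6. Of 18 genes of glutathione supply and breakdown, the median was 0.04, and Slc1a5, a neutral amino acid importer, had 11.3 RPKM at P28 and 17.7 at P7, a ratio of 0.638 (0.578 to 0.704). Of the same list Lap3 had 6.46 and 5.51 RPKM and Cndp2 7.44 and 7.63. NRF2 partners and regulators (11 genes) had a median of 0.00, with Sqstm1, which sequesters KEAP1, at 17.3 and 12.5 RPKM and Cul3, the ubiquitin ligase scaffold, at 21.5 and 23.0. Gsk3b had 23.7 and 18.8 RPKM and Rbx1 10.6 and 8.89. Repair genes such as methionine sulphoxide reductases and sestrins (11 genes) had a median of 0.23, with Park7 at 9.28 and 6.23 RPKM and Msrb3 at 10.4 and 7.09. Pon2 had 50.1 and 42.1 RPKM and Sesn3 5.18 and 5.97. Other thioredoxin-fold genes (11) had a median of -0.20, and Txndc5, an oxidoreductase of the endoplasmic reticulum, had 4.67 RPKM at P28 and 7.37 at P7, a ratio of 0.634 (0.542 to 0.741). Txndc17 had 7.68 and 9.54 RPKM, Txnl1 7.42 and 6.84, and Txndc12 5.14 and 5.13. Glutaredoxins (4) had a median of 0.09, with Glrx at 20.8 and 18.1 RPKM and Glrx3 at 4.13 and 5.76. The lists of NRF2 partners, repair genes, thioredoxin-fold genes and glutaredoxins held 0 genes past 2-fold. Of the oxidant-producing oxidases only 4 of 16 reached 1 RPKM. Among the other glutathione peroxidases Gpx8 of the endoplasmic reticulum had 17.4 RPKM at P28 and 14.8 at P7. With equal totals, the medians of all these lists were lower, at 0.03 for the oxidases and below 0 for NADPH supply, glutathione supply, NRF2 partners, repair genes, thioredoxin-fold genes, glutaredoxins and selenoproteins.

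**Figure D5:**
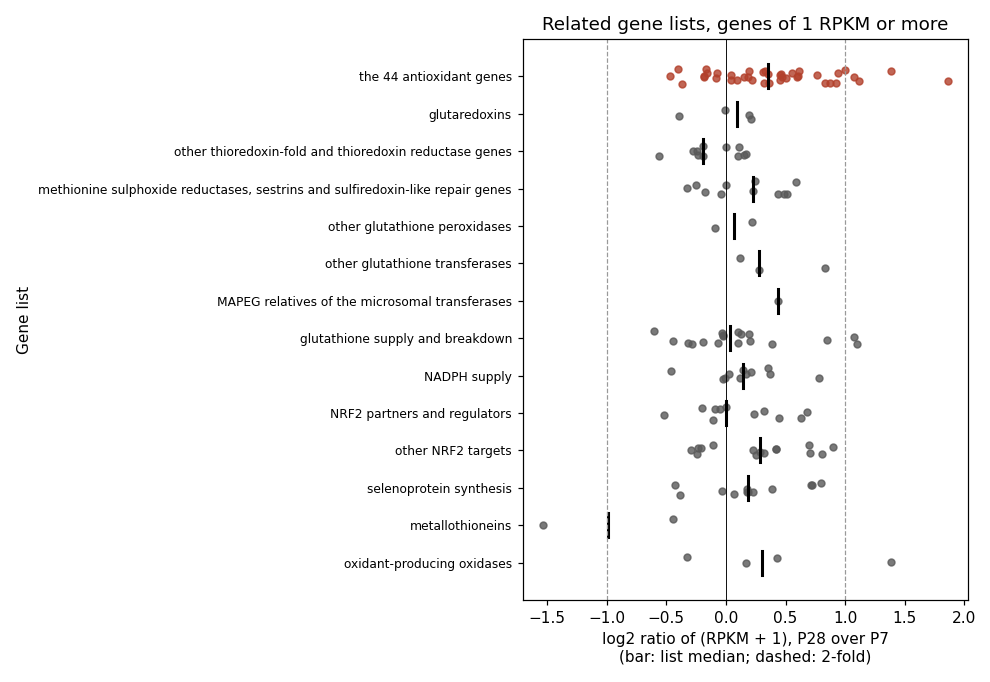
Log2 ratio of (RPKM + 1), P28 over P7, for the antioxidant genes and for 13 related lists, 1 point per gene of 1 RPKM or more, with the list median as a bar and 2-fold as dashed lines. Gpx3 (1.86) lies farthest right and Mt2 (-1.54) farthest left.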

How the data were processed

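Total RNA of sorted type II pneumocytes was reverse transcribed and tagmented (Nextera XT), per the labels' protocols. TopHat, TopHat2 2.0.9 and GRCm38 (mm10) are named, with no role, in the processing notes of the submitters. The authors deposited RPKM values, 1 column per library, per the file headers; the counting program is not given in the sources used here, nor are its annotation, strand use and filters. The members and the gene lists were chosen with earlier results of these data known.

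The log2 ratio of (RPKM + 1), P28 over P7, was taken for genes reaching 1 RPKM in either library and called at 2-fold; adding 1 shrinks the difference of low genes. No test was possible with 1 library per age. Transcript lengths came from GENCODE M21, and 31 of the 44 genes had a single length, the others a mean. Products of low RPKM and length were whole multiples of 1 step, within 0.05, for 57.5% of 2333 low genes at P28 and 59.0% of 2536 at P7. The steps put the RPKM denominators at about 24600000 reads at P28 and 17600000 at P7. Intervals rest on the read numbers so obtained, taking the smallest step as 1 read. They and the floors of 3 reads cover counting error only, since PCR copies of a molecule were not told apart. All 44 genes, the leading genes of each list (up to 4 genes reaching 5 RPKM, by absolute log2 ratio) and the cell markers set beside results are named; Cth and Gstp2 were named after their values were seen. Near-identical stretches were found with blastn 2.17.0. The procedure was tested on simulated whole reads made with the same transcript lengths, so recovery there was built in. That run cannot speak for genes off the whole steps. The number of per-sample columns not used was 0. Alternatives changed the pseudocount, filter, scaling, fold and lengths.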

Additional observations from a re-analysis of the deposited data

How the results depend on the processing

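The share of all genes called higher in each setting stands in brackets. The 4 genes at least 2-fold higher became 10 with a pseudocount of 0.1 (2.34%) and 2 with a pseudocount of 5 (0.404%). They became 2 among the 29 genes of 5 RPKM or more (2.01%) and 2 with equal totals (0.673%). With the median log2 ratio of all genes set to 0 the count was 7 (1.61%), and at a 1.5-fold call 13 (4.50%). The 2 left by the larger pseudocount and by the stricter filter were Gstm1 and Prdx6, and with equal totals Gpx3 and Sod3. No filter (0.468%), upper quartile scaling (1.29%) and totals without the 10 most abundant genes (1.09%) kept the count within 1.5 times. In every setting 0 antioxidant genes were lower by the fold called, while the share of all genes ran from 0.352% with a pseudocount of 5 to 7.46% at a 1.5-fold call. The median of 0.36 became 0.017 with equal totals and 0.47 with the median of all genes set to 0. Intervals above 1 numbered 14 rather than 27, and below 1 16 rather than 3, with equal totals. Transcript lengths, and the smallest whole read numbers, an alternative chosen after seeing the data, left both counts within 1.5 times. Antioxidant genes held 0.981% of the total RPKM at P28 and 0.949% at P7, or 1.77% and 1.33% without the 10 most abundant genes of each library. Of 312 single-gene values under the alternatives, 39 moved by more than 0.5 of the width of the gene's counting interval on the log2 scale. Most of those 39 were values with equal totals. Sign was checked only for the 4 called genes, of which 0 changed. Genes within 2-fold did change sign, and log2 ratios above 0 went from 31 of 40 genes to 20 with equal totals. That number stayed at 31 under upper quartile scaling and with totals without the 10 most abundant genes. No paired analysis was possible because each age had 1 library. Depth limits Sod3, Gpx3, Mgst2, Nqo1, Slc7a11 and Gstm5, each under 20 reads at P7.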
